A study of Mus musculus with 6 samples.

Results

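The nuclear genes that encode the subunits of the 5 oxidative phosphorylation complexes were examined as a group in postnatal mouse cerebellum. Members were chosen by symbol: the Nduf subunit genes, Sdha to Sdhd, the Uqcr genes and Cyc1, the Cox4 to Cox8 families and the Atp5 genes, each with at least 10 counts summed over the libraries. This gave 83 genes among 26195 genes with at least 1 count. Of these, 35 belong to complex I, 4 to complex II, 9 to complex III, 18 to complex IV and 17 to complex V. Ndufa4 and its paralog Ndufa4l2 were placed with complex IV, where the NDUFA4 protein is known to sit. Atp5s and Atp5sl match the symbol rule although their proteins are not structural subunits of ATP synthase. Cox8b, with 1 count in all, and Cox8c, with 0 counts, met the symbol rule but not the minimum, and 6 symbols of pseudogenes were left out.

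The study compared 6 libraries of cerebellar total RNA, all from C57BL/6 mice at 6 days of age: 3 from wild-type mice (WT) and 3 from conditional SnoN knockout mice (KO). SnoN, encoded by Skil, is a transcriptional regulator of the SMAD pathway, and the study asks what it does for the proliferation of granule neuron precursors. Each genotype was labelled as 1 female and 2 male mice. The sources used here give neither the Cre driver nor the deleted part of Skil, and none says whether littermates were used, so p-values measure the spread between these libraries.

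Oxidative phosphorylation couples electron transfer along the inner mitochondrial membrane to the synthesis of ATP. Complexes I and II feed electrons from NADH and succinate to ubiquinone, complex III passes them to cytochrome c, complex IV reduces oxygen, and complex V uses the resulting proton gradient to make ATP. All but complex II combine nuclear subunits with subunits encoded in mitochondrial DNA, and developing neurons shift their reliance from glycolysis towards this pathway as they leave the cell cycle.

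Library totals ranged from 12605870 to 17757711 counts, so that a gene with 0 counts in a library may have a level of up to 0.176 to 0.235 CPM, the value of 3 counts. CPM values are counts scaled to a common library total and by TMM, a correction for differences in library composition. Skil, the targeted gene, stood at 89.5, 87.5 and 88.9 CPM in WT and 76.0, 74.7 and 77.5 CPM in KO (log2 fold change −0.22, SE 0.042, edgeR unadjusted p = 0.000379, adjusted p = 0.637), with no overlap of the groups. No gene of 15457 tested passed an adjusted p of 0.05 in edgeR's quasi-likelihood test (0%), and 1187 had an unadjusted p under 0.05 (7.68%). Gm42418, a locus that overlaps ribosomal RNA sequence, took 0.0512% to 0.0660% of counts in WT 1, WT 3, KO 1 and KO 2, 0.692% in WT 2 and 3.75% in KO 3. KO 1, labelled female, had the Y-linked Ddx3y at 89.8 CPM, and KO 2, labelled male, had Xist at 2536 CPM, so the sex labels of these KO libraries do not match their transcripts. Choroid plexus markers summed to 48.4 CPM in KO 2 and to between 1812 and 3496 CPM in the other libraries. Granule lineage markers, 8 of 8 with a log2 fold change above 0 (median 0.11, 1 at an unadjusted p under 0.05), summed to 3860 to 4474 CPM in WT and 4145 to 4495 CPM in KO. Markers of astrocytes and Bergmann glia, 6 of 6 tested above 0 (median 0.14, 4 at an unadjusted p under 0.05), summed to 2757 to 2891 CPM in WT and 2942 to 3258 CPM in KO. Brainstem markers, 6 of 6 tested, were below 0 (median −1.28, 2 at an unadjusted p under 0.05). Their median level was 1.24 CPM. Meninges markers were below 0 for 6 of 6 (median −0.12, 2 at that p). Oligodendrocyte markers were below 0 for 5 of 7 (median −0.12, 2 at that p). Blood markers, 6 of 6 tested, were below 0, none at that p. Microglia markers were above 0 for 7 of 7 (2 at that p) and Purkinje cell markers for 5 of 6 (1 at that p). The part of these cells and tissues in the values given here was not tested. In whole tissue, fewer cells of a type and less RNA per cell cannot be told apart.

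The subunit genes differed little between genotypes. Of the 83 genes, 82 passed the filter on low counts and were tested, and none passed the adjusted p of 0.05, where the background is 0%. Only Atp5f1 had an unadjusted p under 0.05, higher in KO (1 of 82, beside 3.21% of all genes tested in that direction). The median log2 fold change was 0.037 (interquartile range 0.0034 to 0.072), beside −0.0023 over all genes tested. The log2 fold change was above 0 for 64 of the 82 genes and below 0 for 18, which is 78.0% above 0 beside 49% of all genes tested. This split around 0 depends on the scaling and on single libraries: with library totals as the only scaling, 50 of 82 (61%) were above 0 and the median over all genes moved to −0.022. The subunit median minus the median over all genes was 0.039 under both scalings. It ranged from 0.022 (without KO 3) to 0.059 (without KO 1) when 1 library was left out. With TMM scaling and all 6 libraries, 68 of the 82 genes lay within 0.1 of 0 on the log2 scale, beside 9593 of all 15457 genes. The subunit genes had a higher level than most genes. At a mean of 20 CPM or more, 64 of 69 subunit genes lay within 0.1 of 0, beside 7112 of 9093 genes. At that level 82.6% of the subunit genes were above 0, beside 53.5% of all genes tested.

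**Figure D1:**
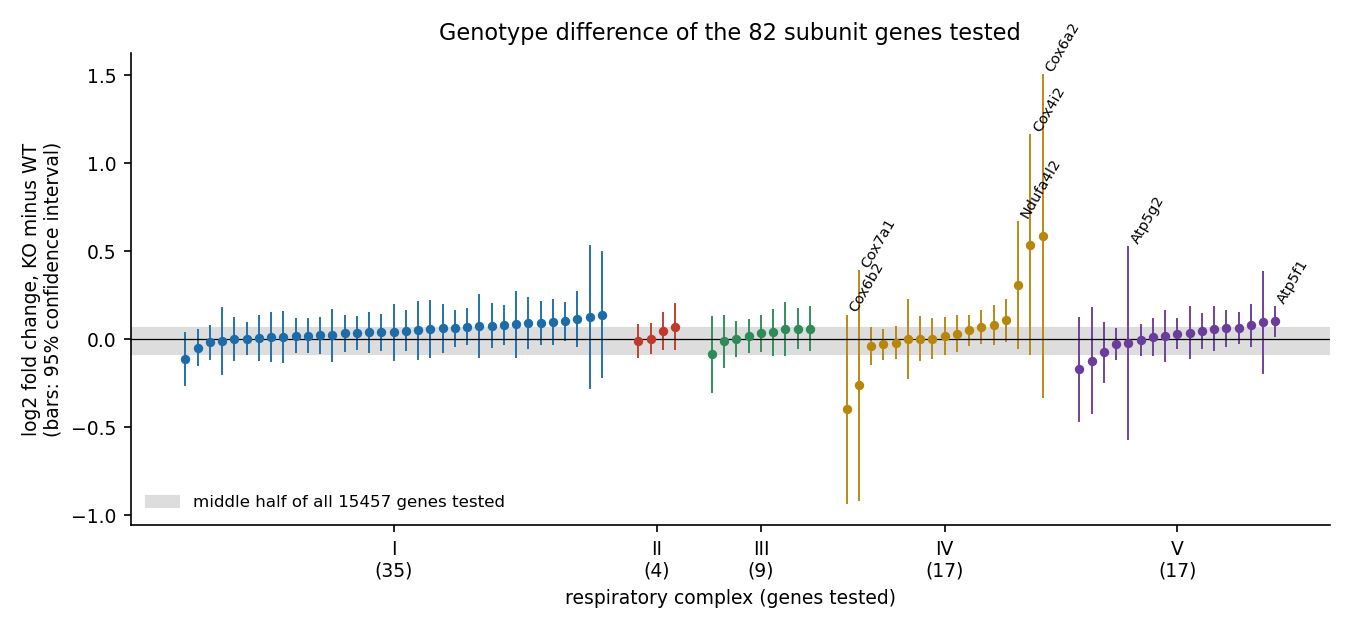
Log2 fold change (KO minus WT) of each subunit gene tested, sorted within each complex, with its 95% confidence interval from edgeR; the grey band spans the interquartile range of all 15457 genes tested. Most points sit within or just above the band near 0, and the wide intervals of complex IV belong to isoform genes of low level such as Cox6a2, Cox4i2 and Cox6b2.

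How tightly the data bound a difference followed the level of the gene. All 69 subunit genes with a mean of at least 20 CPM had a 95% confidence interval within 0.32 of 0 on the log2 scale. Over all genes of that level the interval was as narrow for 8350 of 9093. Below 20 CPM, 2 of 13 subunit genes tested were bounded as narrowly and 8 within 1.5-fold, so that larger differences of these genes lay within their intervals. Spread between libraries was read at a matched level: at 20 CPM or more the median SD of log2 CPM over all 6 libraries was 0.060 for the subunit genes and 0.073 for all genes tested, and below 20 CPM it was 0.222 and 0.204.

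The level of the subunit genes as a whole overlapped between genotypes. Each gene was set against its mean log2 CPM over the 6 libraries. The median deviation over the 82 genes was −0.034, 0.018 and −0.033 in WT 1, 2 and 3, and −0.0084, 0.0090 and 0.060 in KO 1, 2 and 3. WT 2 lay above KO 1 and KO 2, so the groups overlapped, and KO 3 was the highest library. The medians of all 5 complexes lay on one side of 0 in each WT library and in KO 3, and on both sides in KO 1 and KO 2. In KO 3, 67 of the 82 genes were above their 6-library mean, against 56 in WT 2, 43 in KO 2, 37 in KO 1, 20 in WT 1 and 19 in WT 3. KO 3 and WT 2 are the libraries with the highest shares of Gm42418. Mitochondrial ribosomal RNA ranged from 0.164% to 0.202% of counts in 4 libraries and took 0.237% in WT 2 and 0.505% in KO 3. The part of these transcripts in the deviations was not tested; without WT 2 and KO 3, a comparison of 2 libraries with 2, the median log2 fold change of the subunit genes was 0.032 and 57 of 82 were above 0. Without KO 1 the median was 0.055.

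**Figure D2:**
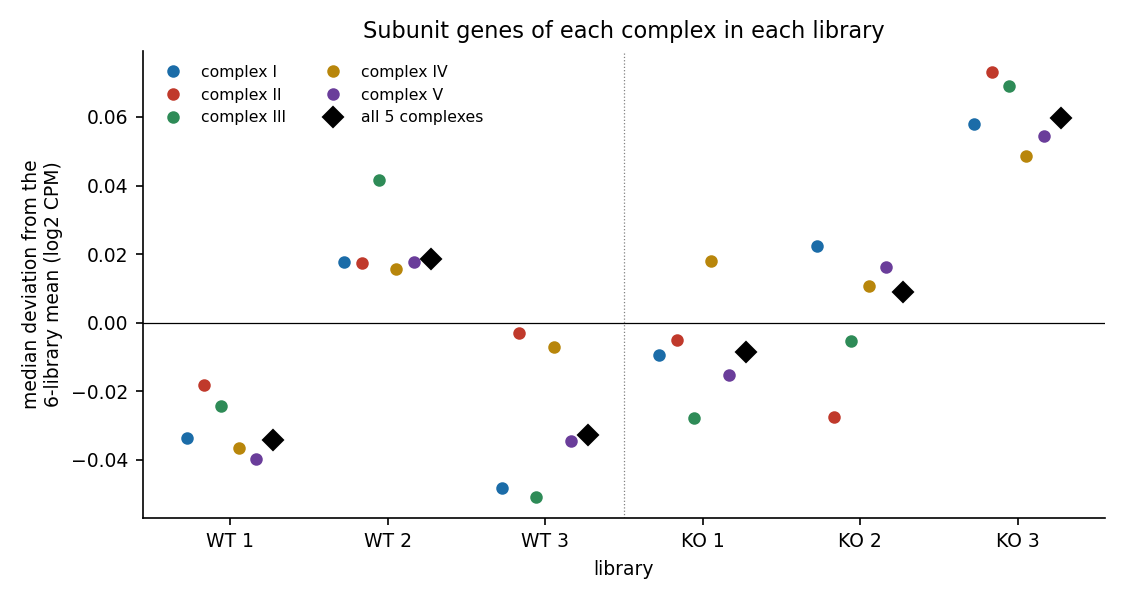
Median deviation of the subunit genes of each complex from their 6-library mean (log2 CPM), per library; black diamonds give all 82 genes. KO 3 is highest for all 5 complexes, WT 1 is below 0 for all 5, and WT 2 lies among the KO libraries.

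Complex I, the NADH dehydrogenase, held 31 genes with a log2 fold change above 0 among 35, with a median of 0.041. Its summed level was 2058, 2139 and 2046 CPM in WT and 2089, 2144 and 2186 CPM in KO, with WT 2 inside the KO range. The nuclear core subunits carry the flavin and the iron-sulfur clusters that conduct electrons. Ndufv1, which binds NADH, was at 131, 137 and 128 CPM in WT and 134, 143 and 137 CPM in KO. Ndufs1, the largest core subunit, was at 132, 132 and 122 CPM in WT and 129, 128 and 139 CPM in KO. The ranges of the groups overlapped for both, as they did for the core subunits Ndufv2, Ndufs3, Ndufs7 and Ndufs8.

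Among the accessory subunits of complex I, Ndufa10 had the smallest p. It was at 100.5, 105.5 and 98.0 CPM in WT and 106.1, 113.7 and 106.6 CPM in KO (log2 fold change 0.10, SE 0.050, edgeR unadjusted p = 0.066, adjusted p = 0.654). All KO libraries were above all WT libraries, which was so for 4 of the 82 subunit genes, or 6.95% of all genes tested. Ndufa11, a membrane accessory subunit, was at 39.0, 43.8 and 40.5 CPM in WT and 45.0, 44.9 and 42.4 CPM in KO. Ndufb8, a membrane arm subunit often used as a marker of assembled complex I, was at 61.1, 70.4 and 65.6 CPM in WT and 69.4, 70.2 and 71.03 CPM in KO. In both genes WT 2 fell among the KO libraries. The lowest members were Ndufb4, with 3.52 to 4.38 CPM in WT and 3.76 to 5.34 CPM in KO, and Ndufs5, with 5.61 to 8.57 CPM in WT and 6.97 to 8.04 CPM in KO.

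Complex II, succinate dehydrogenase, is made of nuclear subunits alone and also acts in the tricarboxylic acid cycle. Sdha, its flavoprotein, was at 254.5, 256.5 and 260.5 CPM in WT and 253.7, 252.9 and 267.1 CPM in KO. Sdhb, its iron-sulfur protein, was at 109, 114 and 110.4 CPM in WT and 112, 109 and 111 CPM in KO. Neither showed a separation of the genotypes. Sdhc, a membrane anchor, was at 100.1, 97.9 and 101.3 CPM in WT and 98.5, 102 and 108 CPM in KO. Sdhd, the other anchor, was at 86.1, 94.3 and 87.9 CPM in WT and 96.3, 86.8 and 99.2 CPM in KO (log2 fold change 0.073, SE 0.060, edgeR unadjusted p = 0.254, adjusted p = 0.756). KO 2 was among the WT libraries for Sdhd and was its second lowest value.

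Complex III, the cytochrome bc1 complex, had 7 of 9 genes above 0 (median 0.034). Cyc1, the cytochrome c1 subunit, was at 146, 150.2 and 146.5 CPM in WT and 147, 146 and 155 CPM in KO. Uqcrfs1, the Rieske iron-sulfur protein, was at 132, 123 and 116 CPM in WT and 119, 131 and 131 CPM in KO. For both the lowest KO library was below the highest WT library. Uqcrc1 and Uqcrc2, the core proteins, had the highest CPM of the complex. Uqcrc1 ranged from 167 to 180 CPM in both genotypes. Uqcrc2 was at 169, 171 and 170.5 CPM in WT and 169, 168 and 185 CPM in KO, with only KO 3 outside the WT range by more than 1 CPM. Uqcrh, the hinge protein, had the smallest p of the complex (log2 fold change 0.061, SE 0.051, edgeR adjusted p = 0.758). Uqcrb, the lowest member, was at 13.07, 13.02 and 11.8 CPM in WT and 12.4, 12.2 and 11.2 CPM in KO.

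Complex IV, cytochrome c oxidase, had 12 of 17 genes tested above 0 (median log2 fold change 0.020). Among the ubiquitous subunits given here, log2 fold changes ranged from −0.029 for Cox4i1 to 0.11 for Cox5b. Cox4i1 was at 261, 271 and 266 CPM in WT and 258, 258 and 266 CPM in KO. Cox5b was at 32.4, 31.4 and 34.0 CPM in WT and 34.0, 35.7 and 35.5 CPM in KO (log2 fold change 0.11, SE 0.055, edgeR unadjusted p = 0.078, adjusted p = 0.654). Ndufa4 was at 137, 139 and 138 CPM in WT and 142, 142 and 145 CPM in KO (log2 fold change 0.052, SE 0.040, edgeR unadjusted p = 0.226, adjusted p = 0.741). The KO libraries were above all WT libraries for Ndufa4 and, with WT 3 and KO 1 almost level, for Cox5b.

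Several complex IV subunits come in isoforms with different tissue distributions, and these were compared per kilobase of transcript. One isoform held nearly all of the level in most groups. Cox4i2, an isoform known from lung and from oxygen-sensing cells, made up 0.487% of the Cox4 level in WT and 0.724% in KO. Cox6a2, the heart and muscle isoform, made up 0.312% of the Cox6a level in WT and 0.447% in KO. Cox8a held 100% of the Cox8 level in KO and 99.98% in WT. Cox7a1, another muscle isoform, made up 1.72% of the Cox7a level in WT and 1.46% in KO. Cox7a2l, a factor in assembly of respiratory supercomplexes, made up 30.5% in WT and 31.4% in KO, and Cox7a2 took the rest. Skeletal muscle markers, 5 of 9 of which passed the filter, summed to between 10.4 and 14.4 CPM in every library.

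The isoforms of low level had the largest log2 fold changes of the group, and none passed the test. Cox4i2 was at 1.57, 1.06 and 1.17 CPM in WT and 2.04, 2.17 and 1.35 CPM in KO (log2 fold change 0.54, SE 0.28, edgeR unadjusted p = 0.0853, adjusted p = 0.656). KO 3 was below WT 1, so the groups overlapped. Ndufa4l2, a paralog of Ndufa4 known to be induced in hypoxia, was at 4.23, 3.85 and 3.74 CPM in WT and 5.56, 5.08 and 4.11 CPM in KO (log2 fold change 0.31, SE 0.16, edgeR unadjusted p = 0.0877, adjusted p = 0.659). KO 3 was again below WT 1. When 1 library was left out, the log2 fold change ranged from 0.22 to 0.44 for Ndufa4l2 and from 0.40 to 0.75 for Cox4i2. Cox6a2 was at 0.939, 0.797 and 0.390 CPM in WT and 0.705, 1.56 and 0.939 CPM in KO (log2 fold change 0.59, SE 0.41, edgeR unadjusted p = 0.184, adjusted p = 0.721). Its log2 fold change was 0.23 without KO 2, 0.31 without WT 3 and 0.82 without WT 1. In the brain Cox4i2 and Ndufa4l2 are known as pericyte transcripts. Of 8 endothelial and pericyte markers, 6 had a log2 fold change above 0. Of the 8, 2 had an unadjusted p under 0.05 with all KO libraries above all WT libraries, the endothelial markers Cldn5 and Tek. Over all genes tested, 3.21% were higher in KO at that p, and 6.95% had all KO libraries above all WT libraries. The sum of the 8 was 606 to 630 CPM in WT and 645 to 650.2 CPM in KO. Among the pericyte markers, Rgs5 was at 210 to 230.0 CPM in WT and 220 to 234 CPM in KO, and Kcnj8 was at 8.53 to 9.74 CPM in WT and 7.99 to 9.39 CPM in KO. Rgs5 and Kcnj8 overlapped between genotypes, as did the other pericyte markers of the list. The part of endothelial cells and pericytes in the isoform values was not tested.

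**Figure D3:**
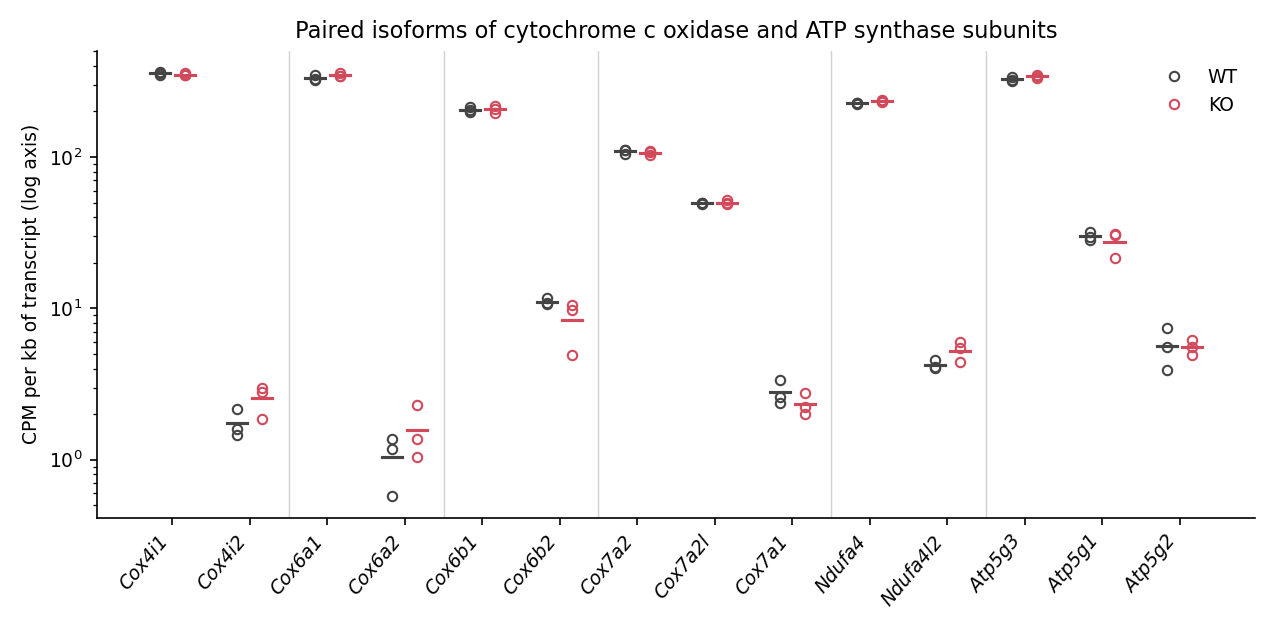
Level of paired isoforms in CPM per kilobase of transcript (log axis); circles are single libraries (3 WT in grey, 3 KO in red) and short lines are group means, with vertical lines between isoform groups. The ubiquitous isoforms sit close together in both genotypes, while Cox4i2, Cox6a2, Cox6b2 and Ndufa4l2 are far lower and more spread.

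Cox6b2, best known from testis, was the 1 tested subunit gene with all KO libraries below all WT libraries, beside 6.73% of all genes tested. It was at 5.01, 5.45 and 4.99 CPM in WT and 4.54, 2.30 and 4.87 CPM in KO (log2 fold change −0.40, SE 0.24, edgeR unadjusted p = 0.130, adjusted p = 0.684). Without KO 2 the log2 fold change was −0.13, and without KO 3 it was −0.60. KO 2 was the lowest library, and KO 3 lay just below the lowest WT library. It made up 5.11% of the Cox6b level in WT and 3.91% in KO. Cox7b2, another isoform best known from testis, did not pass the filter, with 5, 3 and 2 counts in WT and 1, 0 and 1 in KO, so it was not tested.

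Complex V, ATP synthase, held the highest levels of the group. Its genes summed to 3266, 3356 and 3275 CPM in WT and 3315, 3314 and 3438 CPM in KO, which was 40.7% to 41.0% of the summed level of all subunit genes in every library. Atp5b, the catalytic beta subunit, was at 1123, 1143 and 1120 CPM in WT and 1113, 1102 and 1165 CPM in KO, so the KO libraries lay on both sides of the WT range. Atp5a1, the alpha subunit, was at 948, 976 and 956 CPM in WT and 981, 971 and 995 CPM in KO. Atp5f1, subunit b of the stalk that holds the catalytic head in place, was at 132.5, 132.0 and 134 CPM in WT and 142, 141 and 145 CPM in KO (log2 fold change 0.10, SE 0.040, edgeR unadjusted p = 0.0292, adjusted p = 0.637). All KO libraries were above all WT libraries for Atp5f1. Its unadjusted p was 0.105 with library totals as the only scaling, and between 0.0397 and 0.0765 when 1 library was left out. The other stalk genes Atp5j and Atp5o had log2 fold changes of 0.079 and 0.063, with overlap of the groups.

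Subunit c, which forms the rotating ring, is encoded by Atp5g1, Atp5g2 and Atp5g3 as one mature protein. Atp5g3 made up 90.1% of their level per kilobase in WT and 91.1% in KO. It was at 227.5, 239 and 230.2 CPM in WT and 236, 243 and 250.04 CPM in KO (log2 fold change 0.066, SE 0.041, edgeR unadjusted p = 0.137, adjusted p = 0.689). Atp5g1 was at 19.0, 17.7 and 16.9 CPM in WT and 18.1, 12.7 and 18.4 CPM in KO (log2 fold change −0.12, SE 0.14). The low value was that of KO 2, the library with few choroid plexus transcripts; without KO 2 the log2 fold change was 0.032, and the part of that tissue was not tested. Atp5g2 was at 1.72, 2.46 and 3.27 CPM in WT and 2.74, 2.17 and 2.46 CPM in KO. No window of its shortest transcript is free of sequence found in other genes. In its longest transcript 12.6% of windows are found in no other gene, so its value is uncertain.

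Per kilobase of transcript, levels differed widely among subunits that are built into one complex. The median was 60.2 CPM per kilobase for complex I, 81.7 for complex II, 97.7 for complex III, 52.0 for complex IV and 106 for complex V. Atp5b led at 589 CPM per kilobase, followed by Atp5a1 at 393, Cox4i1 at 353, Cox6a1 at 341 and Atp5g3 at 333. Single-copy subunits were lower, with Atp5c1 (gamma) at 152, Atp5d (delta) at 156 and Atp5e (epsilon) at 210 CPM per kilobase. The alpha and beta subunits are present in more copies per complex than these, and the part of copy number in transcript levels was not tested. At the lower end stood Cox7b2 at 0.272, Cox6a2 at 1.31, Cox4i2 at 2.14 and Cox7a1 at 2.56 CPM per kilobase.

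Sequence shared with other genes, pseudogenes among them, may bear on some of these levels. For each gene, windows of 50 bases of its transcript were searched in all other genes of GENCODE M21. Of the 83 genes, 48 had at least 95% of windows found in no other gene, with a median of 80.4 CPM per kilobase. The 21 genes with 70% to 95% had a median of 78.2, and the 14 genes under 70% a median of 32.8. Atp5l (15.2% of windows unique, 10.9 CPM per kilobase), Cox7c (47.0%, 20.6) and Ndufb4 (63.0%, 4.35) were low beside the medians of their complexes. Atp5o (66.0%, 157) was not. Across the 83 genes Pearson's r between this share and log2 CPM per kilobase was 0.223 and Spearman's rho 0.200; the genes share the same libraries and are not independent. How reads that fit several genes were counted is not stated in the labels, so low levels of these genes are uncertain; the comparison of genotypes within a gene is made on the same sequence in all libraries.

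**Figure D4:**
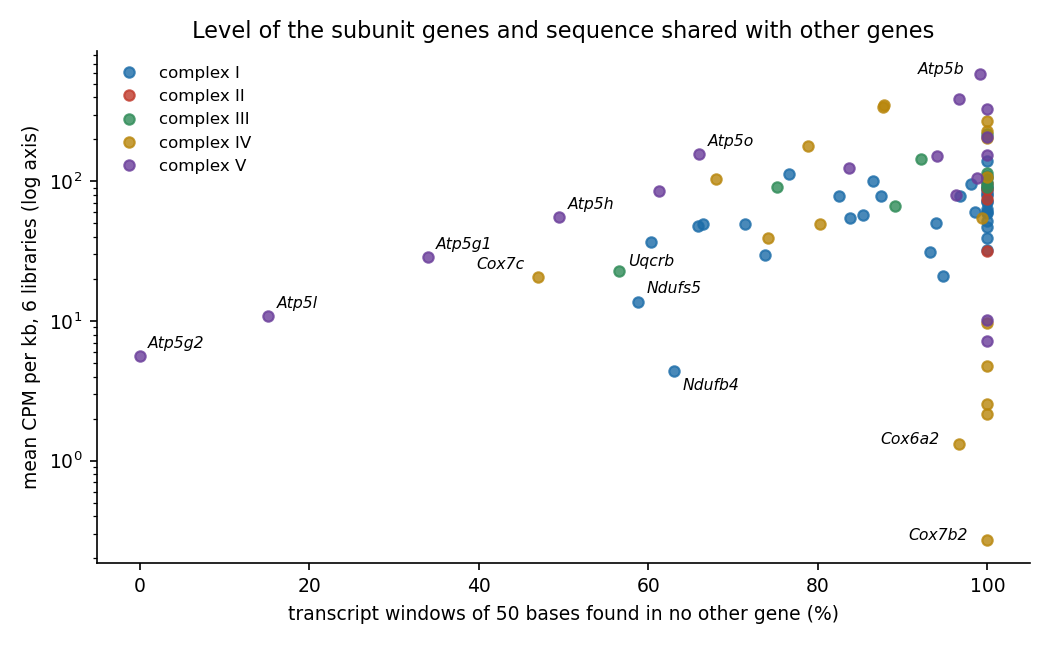
Mean level of the 83 subunit genes over 6 libraries (CPM per kilobase, log axis) against the percentage of 50-base windows of the transcript found in no other gene. Atp5g2, Atp5l, Cox7c and Ndufb4 combine shared sequence with a low level, while the low isoforms Cox7b2 and Cox6a2 lie at the right, where nearly all windows are unique.

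Nuclear subunit genes are known to be controlled in part by the transcription factors NRF1, GABP (an ETS factor) and YY1. Short cores of their motifs were searched in RefSeq promoter windows of build GRCm38.p6 (250 bases before to 50 after the start, both strands). Of the 83 members, 66 had a window, 72 windows in all. The NRF1 core GCGCATG was present in 18.1% of member windows, beside 3.91% of all 32851 windows and 4.80% of the 21263 windows of protein-coding genes. The ETS core CCGGAAG was present in 22.2%, beside 8.86% and 11.6%. The YY1 core ATGGCGG was present in 18.1%, beside 4.06% and 5.25%. At least 1 of the 3 was found for 16 of 31 genes of complex I, 2 of 3 of complex II, 3 of 5 of complex III, 4 of 13 of complex IV and 8 of 14 of complex V. In GENCODE M21 the promoter of Atp5j lies within Gabpa, the gene of the GABP alpha subunit, on the opposite strand.

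The 200 bases before the start are shown for 3 genes of complex IV, with matches in capitals: Cox6a1, one of the highest members, because it holds both an NRF1 and an ETS match, and Cox6b1 and Cox6b2 because these isoforms differ in level. They lie at chr5:115348959-115349158, chr7:30626115-30626314 and chr7:4753095-4753294, all on the minus strand, and are written 5′ to 3′. In GENCODE M21 the Cox6a1 window overlaps the end of the lincRNA Gm42903 on the plus strand, the Cox6b2 window overlaps an exon of Fam71e2, and the windows of Cox6a1 and Cox6b1 take in the first 23 and 37 bases of their own first exons.
Cox6a1: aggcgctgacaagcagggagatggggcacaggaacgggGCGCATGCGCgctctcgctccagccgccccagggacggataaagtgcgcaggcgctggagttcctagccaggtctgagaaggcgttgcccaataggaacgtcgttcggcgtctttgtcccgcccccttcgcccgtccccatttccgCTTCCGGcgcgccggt
Cox6b1: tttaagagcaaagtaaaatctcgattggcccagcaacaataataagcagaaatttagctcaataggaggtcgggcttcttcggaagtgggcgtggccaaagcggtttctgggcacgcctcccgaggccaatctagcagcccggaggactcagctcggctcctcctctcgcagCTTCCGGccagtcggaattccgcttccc
Cox6b2: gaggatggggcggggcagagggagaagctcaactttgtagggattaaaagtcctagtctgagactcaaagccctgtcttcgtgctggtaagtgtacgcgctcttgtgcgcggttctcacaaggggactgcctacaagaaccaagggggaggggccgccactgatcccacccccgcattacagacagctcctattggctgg
Cox6a1 holds overlapping NRF1 matches on both strands, and Cox6b1 holds an ETS match where the window of Cox6b2 holds none of the 3 cores. Cox6b1 was at 206 and Cox6b2 at 9.73 CPM per kilobase. A match describes the letters of the window and was not tested as a binding site.

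The factors themselves overlapped between genotypes. Nrf1 was at 56.3, 60.3 and 59.5 CPM in WT and 53.7, 63.1 and 57.3 CPM in KO. Gabpa was at 93.7, 96.6 and 100.2 CPM in WT and 98.8, 100.1 and 101.1 CPM in KO, and Yy1 was at 91.0, 98.5 and 91.3 CPM in WT and 92.6, 96.8 and 88.9 CPM in KO. Over 17 regulators of mitochondrial biogenesis, 6 had a log2 fold change above 0 and 11 below, with a median of −0.020. Gabpb1, the beta subunit of GABP, was the 1 of the 17 with an unadjusted p under 0.05 (log2 fold change 0.14, SE 0.062, edgeR unadjusted p = 0.0459, adjusted p = 0.640). Over all genes tested, 3.21% were higher in KO at that p. The unadjusted p of Gabpb1 ranged from 0.011 to 0.15 when 1 library was left out. Ppargc1a, a coactivator of these factors, was at 49.1, 56.1 and 47.0 CPM in WT and 49.1, 41.8 and 53.1 CPM in KO.

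No gene of the other pathway lists passed the adjusted p of 0.05 in edgeR's test. Of 47 assembly factors, 45 were tested, 28 with a log2 fold change above 0 and 17 below, with a median of 0.023; Sco2 and Pet117 were listed at 0 counts. At an unadjusted p under 0.05, 691 of all 15457 genes tested were lower in KO. Cox17, the copper chaperone of complex IV, was the 1 assembly factor of 45 tested at that p. It was at 8.22, 6.18 and 7.64 CPM in WT and 6.11, 5.75 and 5.81 CPM in KO (log2 fold change −0.31, SE 0.14, edgeR unadjusted p = 0.0478, adjusted p = 0.647), and its unadjusted p ranged from 0.012 to 0.16 when 1 library was left out. Of 16 genes of the tricarboxylic acid cycle and pyruvate dehydrogenase, 10 were above 0. Dlat, a pyruvate dehydrogenase subunit, was the 1 of these 16 with an unadjusted p under 0.05 (log2 fold change −0.13, SE 0.053, edgeR unadjusted p = 0.0288, adjusted p = 0.637), beside the same 691 of 15457 genes. Its unadjusted p ranged from 0.0044 to 0.11 when 1 library was left out. Of 8 electron carriers and adjacent dehydrogenases, a list that holds Ndufa4 as well, 5 were above 0 and none had an unadjusted p under 0.05.

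The subunits encoded in mitochondrial DNA had fold changes on both sides of 0. Of 13, 7 were tested, 3 with a log2 fold change above 0 and 4 below, with a median of −0.034. Their summed level was 14883, 15304 and 14263 CPM in WT and 14925, 14317 and 15225 CPM in KO, with overlap of the groups. The genes mt-Nd3, mt-Nd4l, mt-Co2, mt-Co3, mt-Atp6 and mt-Atp8 were listed at 0 in all 6 libraries, so the mitochondrial part of complex V was not measured here.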

How the data were processed

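Cerebellar total RNA was sequenced as single-end reads from a kit that does not mark strand, per the labels' protocols. The authors deposited raw counts per gene. STAR 2.0.4b, Subread, featureCounts 1.4.5 and the build mm9 are named in the submitters' processing notes; the sources used here do not give read length or the handling of reads that fit several genes. From entry 99 on, the deposited Ensembl identifiers are out of step with the symbols, so genes were matched by symbol and no identifier is printed; 140 entries that repeat a symbol with its counts were dropped.

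From the counts, edgeR 4.0.16 in R 4.3.3 tested KO against WT over all genes (filterByExpr minimum count 10, TMM, quasi-likelihood F-test, two-sided, Benjamini-Hochberg adjustment), checked on simulated data. Libraries had 12605870 to 17757711 counts. Floors of 3 counts cover counting error only. Levels per kilobase used the shortest of the best-supported principal transcripts. Promoters are from RefSeq (GRCm38.p6), and coordinates are of that build, not mm9. Genes named are Skil, per complex the 3 members with the smallest p, the 2 highest and the 2 lowest, core subunits, isoform groups, members below the filter and pathway genes with p under 0.05; Atp5c1, Atp5d, Atp5e, Atp5o, Nrf1, Gabpa, Yy1, Ppargc1a and Cox7c were added after their values were seen, as were Rgs5, Kcnj8, Cldn5 and Tek. A gene that this rule names is not reported here. Members and lists were chosen with earlier results of these data known. Alternatives changed the scaling, filter, test, covariates, repeats and libraries.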

Additional observations from a re-analysis of the deposited data

How the results depend on the processing

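Under every alternative run, the median log2 fold change of the subunit genes stayed above 0, from 0.018 with library totals only to 0.055 without KO replicate 1. Leaving out 1 replicate gave 0.025 to 0.055. The median moved by less than the spread between libraries of a genotype (0.033). That spread is close to the reported median of 0.037, so this comparison cannot show that the median is stable. Subunit genes with a log2 fold change above 0 numbered from 50 of 82 (library totals) to 68 of 82 (without WT replicate 2), and no alternative called a subunit gene at an adjusted p of 0.05. Over all genes, 0 were called by edgeR, 39 with no filter on low counts, 6 by DESeq2 1.42.0 and 1 with labelled sex as a covariate; leaving out 1 replicate gave 0 to 0. At unadjusted p under 0.05, all genes numbered 1187 in the reported test and 672 by DESeq2. Subunit genes at that p numbered 1 (Atp5f1); they were 0 with library totals only, 3 with no filter (Atp5f1, Ndufa10 and Cox7b2), 0 by DESeq2, 0 with the replicate block and 0 to 5 when 1 replicate was left out. Over all genes, the share at that p was 7.27% with library totals only, 7.12% with no filter, 2.57% by DESeq2 and 5.09% with the replicate block. It ranged from 4.31% to 9.68% when 1 replicate was left out. The 5 of 82 without KO replicate 3 were Ndufa4l2, Cox4i2, Ndufa10, Atp5f1 and Cox6b2, beside 9.68% of all genes. Without KO replicate 2 there were 5 of 82, beside 4.75% of all genes. The cause was not tested. The replicate numbers are not stated to mark a shared litter or day. Deviations of libraries with the same number had correlations of −0.040, −0.32 and −0.18. Taken within groups of 3 libraries, these values cannot show whether the numbers pair the samples. With the block the median was 0.036. Of 49 genes the naming rule takes, the sign differed from that reported for 8 with library totals only, for 2 to 7 when 1 replicate was left out, for 7 without both WT 2 and KO 3, and for 0 or 1 under the other alternatives. Among those whose fold changes were followed one by one, it reversed for Sdhb (−0.011 reported, −0.023 to 0.011 when 1 replicate was left out: positive without WT replicate 2 and, at 0.00097, without KO replicate 2) and, for Sdhb, without both WT 2 and KO 3 (0.0064), for Sdhc without both (−0.00037), and for Atp5g1 without KO replicate 2 (0.032; range with 1 replicate left out −0.21 to 0.032). Skil stayed lower in KO throughout. The covariate of Xist level and the omission of both WT 2 and KO 3 were chosen after seeing the data. Intervals were widest for genes under 20 CPM.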
